A study of Mus musculus with 4 samples.

Results

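S100 proteins are small calcium-binding proteins of vertebrates, and 10 genes of the family (S100b, S100a1, S100a4, S100a6, S100a8, S100a9, S100a10, S100a11, S100a13 and S100a16) were followed by gene symbol among the 22609 symbols counted in ischemic mouse hippocampus. Each protein carries a pair of EF-hands, the loops that hold calcium, and most work as dimers that expose a surface for a partner protein when calcium binds. In brain S100b is a long-used marker of astrocytes, S100a10 is counted among the genes of reactive astrocytes, and S100a8 and S100a9 together form calprotectin, an abundant protein of neutrophils. Some members are also released from cells and act on receptors such as RAGE and TLR4.

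RNA was sequenced from the hippocampi of ovariectomized female mice, 24 h after a 20 min closure of both common carotid arteries. The 2 GFAP-ARO-KO libraries came from mice in which Cre under the Gfap promoter removes floxed Cyp19a1 (aromatase, the enzyme that turns androgens into estrogens) in astrocytes, and the 2 FLOX-control libraries came from FLOX mice. Ovariectomy a week before surgery, the occlusion and the reperfusion were shared by both groups; no sham group is among the samples, and the labels give no age. The labels do not say whether the libraries of a group came from separate animals, so p-values measure the spread between these libraries, which may be technical.

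Gene counts summed to 34878375 and 27930696 in the knockout libraries and to 33495548 and 33235564 in the control libraries. Levels are given as CPM, counts scaled to a common library size by TMM. Cyp19a1 itself gave 1 and 9 reads in the knockouts and 3 and 2 in the controls, too few to check the genotype labels. All 11 markers of hippocampal neurons were detected well enough to be tested, Camk2a being the most abundant at 4674 and 4664 CPM in the knockouts and 4953 and 5652 CPM in the controls. The second knockout library stood apart in meningeal fibroblast markers, whose summed level was 141 and 601 CPM in the knockouts and 154 and 203 CPM in the controls, so calls of named genes that change without it are given beside them. Libraries are named by number, as knockout 1 or control 2. Tissue was sequenced in bulk, in which fewer cells of a type and less RNA per cell cannot be told apart.

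Of the 10 genes, 9 lie on chromosome 3 and S100b lies on chromosome 10. From S100a1 to S100a9, 7 of them have their 5' ends within 181 kb of chromosome 3, and S100a11 and S100a10 follow 2825 kb further on. S100a1 (NCBIM37 chromosome 3, 90314956 to 90318314, minus strand) and S100a13 (90318357 to 90328503, plus strand) are transcribed away from each other, with annotated 5' ends 43 bases apart. Their promoter windows, from 250 bases before to 50 bases after the RefSeq start site, are shown because they share 204 bases. The annotated 5' end of S100a1 lies at position -62 from its RefSeq start site, while that of S100a13 lies at its RefSeq start site. The shared bases are in capitals, and each window is read on its gene's own strand.
S100a13 (chr3:90318107-90318406, plus strand): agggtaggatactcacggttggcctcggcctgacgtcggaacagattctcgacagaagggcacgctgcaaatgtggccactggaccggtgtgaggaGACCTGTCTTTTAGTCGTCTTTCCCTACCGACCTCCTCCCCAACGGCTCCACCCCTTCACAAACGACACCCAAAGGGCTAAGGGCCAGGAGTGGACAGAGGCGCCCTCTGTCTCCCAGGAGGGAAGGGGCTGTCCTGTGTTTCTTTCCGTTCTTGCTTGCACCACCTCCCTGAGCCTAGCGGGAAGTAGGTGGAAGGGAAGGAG
S100a1 (chr3:90318203-90318502, minus strand): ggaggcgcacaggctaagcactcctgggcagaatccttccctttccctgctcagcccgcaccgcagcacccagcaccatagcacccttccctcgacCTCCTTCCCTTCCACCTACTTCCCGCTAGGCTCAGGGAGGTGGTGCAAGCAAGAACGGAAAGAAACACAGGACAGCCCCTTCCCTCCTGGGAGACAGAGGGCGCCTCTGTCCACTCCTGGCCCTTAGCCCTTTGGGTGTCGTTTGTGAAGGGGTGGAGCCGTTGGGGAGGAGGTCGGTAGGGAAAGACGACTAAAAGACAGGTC

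Windows of 4 further genes are shown with motif matches in capitals: S100a16 and S100a4, which fell, and S100a11 and S100b, which did not pass the test. Both strands were searched for the STAT motif, spelled TTCNNNGAA, and for the AP-1 motif, spelled TGANTCA. They were also searched for the C/EBP motif, spelled TTGCNNAA, for the TATA box, spelled TATAAA, and for the GC box, spelled GGGCGG. No matches overlapped in the sequences shown.
S100a16 (chr3:90340926-90341225, plus strand): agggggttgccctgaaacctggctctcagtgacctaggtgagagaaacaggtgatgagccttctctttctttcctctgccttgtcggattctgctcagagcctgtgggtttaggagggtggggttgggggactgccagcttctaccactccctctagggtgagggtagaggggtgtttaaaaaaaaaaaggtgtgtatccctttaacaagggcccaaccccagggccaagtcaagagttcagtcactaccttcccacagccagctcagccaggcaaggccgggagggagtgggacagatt
S100a4 (chr3:90407442-90407741, plus strand): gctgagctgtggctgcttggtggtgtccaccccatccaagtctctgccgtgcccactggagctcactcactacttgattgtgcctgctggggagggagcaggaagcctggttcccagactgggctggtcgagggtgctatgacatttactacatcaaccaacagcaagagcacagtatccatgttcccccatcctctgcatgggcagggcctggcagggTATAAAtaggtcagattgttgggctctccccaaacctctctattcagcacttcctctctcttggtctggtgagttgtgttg
S100a11 (chr3:93324168-93324467, plus strand): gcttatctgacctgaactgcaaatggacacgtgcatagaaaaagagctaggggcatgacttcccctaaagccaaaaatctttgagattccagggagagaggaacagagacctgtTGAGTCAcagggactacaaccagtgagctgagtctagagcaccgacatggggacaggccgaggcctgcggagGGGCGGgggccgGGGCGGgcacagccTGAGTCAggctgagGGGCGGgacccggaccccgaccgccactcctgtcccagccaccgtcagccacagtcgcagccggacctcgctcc
S100b (chr10:75716331-75716630, plus strand): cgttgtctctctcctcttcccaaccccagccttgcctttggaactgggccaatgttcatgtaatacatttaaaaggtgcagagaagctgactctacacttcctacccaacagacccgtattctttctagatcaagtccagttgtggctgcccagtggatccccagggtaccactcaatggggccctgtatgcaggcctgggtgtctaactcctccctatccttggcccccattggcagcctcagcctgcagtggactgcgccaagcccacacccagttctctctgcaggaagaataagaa
The sequences come from the RefSeq promoter table (GRCm38.p6), and their positions are those of the single exact match in NCBIM37. The S100a4 window held a TATA box that begins at position -31 from the start site. The S100a11 window held AP-1 matches at -136 and -38 and GC boxes at -64, -52 and -24. The windows of S100a16, S100b, S100a1 and S100a13 printed here held none of the 5 motifs. A second start site of S100a16 had an AP-1 match and a GC box. Of the other genes that fell, S100a6 had a window with none of the 5 motifs, not printed here. S100a10 had no window in the RefSeq promoter table. Also not printed, the S100a8 window held a TATA box at -30. That of S100a9 held a C/EBP match at -236, a GC box at -223 and a TATA box at 0. Over the 32851 windows of all genes, 8.3% held the STAT motif, 7.81% AP-1, 10.8% C/EBP, 13.6% a TATA box and 35.7% a GC box. These matches describe letters in the windows and were not tested against the expression values.

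Setting GFAP-ARO-KO beside FLOX-control hippocampus asks how the transcripts of these genes differ after ischemia when astrocytes are made to lack aromatase. S100a4, S100a16, S100a10, S100a6 and S100a13 fell in the knockout, by 1.69-fold to 2.87-fold. S100b, S100a1 and S100a11 did not pass the test, and S100a8 and S100a9 had too few reads to be tested. Thus 5 of the 8 tested genes were called lower by edgeR's quasi-likelihood test at a Benjamini-Hochberg adjusted p under 0.05, where 11.0% of the 15011 tested genes were called lower, 9.39% higher and 20.4% in either direction. By edgeR 0 of the 8 rose, 0 were higher at an unadjusted p under 0.05, and limma-voom and DESeq2 also called 0 higher. With the second control library dropped 2 were called lower (S100a16 and S100a10), with the first control library dropped 4, and with the second knockout library dropped 6.

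**Figure D1:**
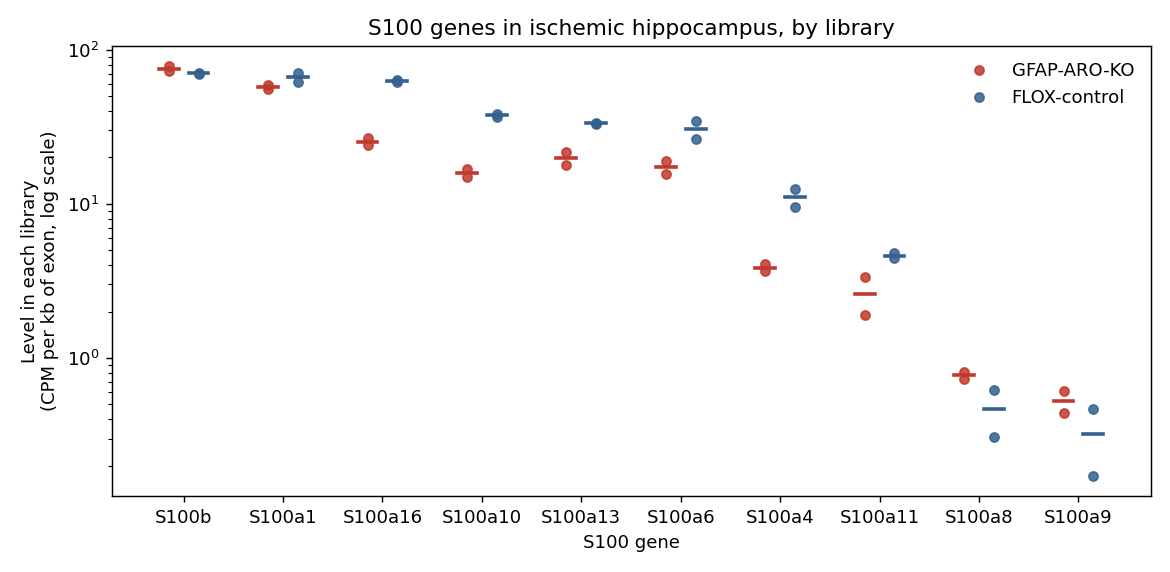
Level of each S100 gene in each library, as CPM per kb of annotated exon on a log axis, with GFAP-ARO-KO in red to the left of FLOX-control in blue; points are libraries and bars are group means (n = 2 each). S100b lies between 70.0 and 77.9 in all 4 libraries, while S100a16 lies at 23.9 and 26.8 in the knockouts and at 63.6 and 61.3 in the controls.

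Per kb of exon, S100b was the most abundant of the 10 in the knockouts, at 73.0 and 77.9 CPM per kb, above S100a1 at 55.3 and 58.7. In the controls S100b was at 70.0 and 70.5 CPM per kb and S100a1 at 61.4 and 71.1, so this pair of neighbors in the order overlapped there. S100a16 followed S100a1 in both groups; in the controls its levels overlapped those of S100a1, and in the knockouts they did not. S100a10 stood below S100a13 and overlapped S100a6 in the knockouts, whereas in the controls it stood next after S100a16 and above S100a13 in both libraries. S100a13 and S100a6 overlapped in both groups. S100a4, S100a11, S100a8 and S100a9 followed in both groups, the last pair overlapping in the controls. The place of S100a11 among them is uncertain, since 66.2% of its windows of read length match elsewhere in the genome and reads aligned at several places were not counted. The summed level of the 10 genes was 209 and 228 CPM per kb in the knockouts and 307 and 326 in the controls. S100b made up 34.9% and 34.2% of it in the knockouts and 22.8% and 21.6% in the controls. Exon length here counts every annotated exon base of a gene, 1212 for S100a10, 1617 for S100a16 and 587 for S100a4. Their longest protein-coding transcripts have 685, 1127 and 498 bases. The order of the genes, the sum and the shares depend on these lengths, and other lengths were not tried.

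S100b, secreted by astrocytes and also made by oligodendrocytes, had 108 and 116 CPM in the knockouts and 104 and 105 CPM in the controls. Every knockout value was above every control value, by a log2 fold change of 0.10 ± 0.09 (SE) that did not pass (edgeR adjusted p = 0.467). Leaving out any 1 library gave log2 fold changes from 0.07 to 0.15. For the marker counts that follow, 11.0% of all tested genes were called lower and 9.39% higher. Other astrocyte genes were uneven: of 12 markers 3 fell, 2 rose (1 with either control library dropped) and 7 did not pass, with a summed level of 5514 and 5815 CPM in the knockouts and 6436 and 6787 CPM in the controls. Gfap, the astrocyte filament protein, was at 761 and 709 CPM in the knockouts and 1378 and 1435 CPM in the controls, and the water channel gene Aqp4 at 73.9 and 105 CPM in the knockouts and 231 and 239.9 CPM in the controls; both fell (adjusted p = 0.00151 and 0.00364). Sox9 also fell, by 0.50 ± 0.12 (adjusted p = 0.0302). It lost its call with either control library dropped, at -0.58 without control 1 and -0.42 without control 2. The markers that rose were Gjb6 and Fgfr3. Gjb6 was at 84.0 and 119 CPM in the knockouts and 46.6 and 47.1 CPM in the controls (1.11 ± 0.16, adjusted p = 0.00645). Fgfr3 rose by 0.48 ± 0.14 (adjusted p = 0.0467) but missed the threshold with no filter (0.0529) and with limma-voom (0.0542). Its call was also lost with knockout 1 dropped, at 0.28. The glutamate transporter gene Slc1a2, the most abundant astrocyte marker, differed by -0.16 ± 0.09 on the log2 scale (adjusted p = 0.222), which did not pass. Of 13 oligodendrocyte markers 9 fell and 4 did not pass (5 fell without either control library), with a summed level of 3646 and 3920 CPM in the knockouts and 4589 and 4340 CPM in the controls. Mbp, the most abundant, did not pass, at -0.17 ± 0.09 (adjusted p = 0.215), while Ugt8a and Ermn fell by 2.19 ± 0.13 and 1.96 ± 0.13 on the log2 scale (adjusted p = 4.26e-04 and 4.52e-04). The part of either cell type in the level of S100b was not tested.

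S100a1, best known for raising calcium release in heart muscle and also present in neurons, had 38.4 and 40.7 CPM in the knockouts and 42.6 and 49.3 CPM in the controls. The groups did not overlap, but the log2 fold change of -0.22 ± 0.12 did not pass (adjusted p = 0.226). S100a13, which helps export the growth factor FGF1 from cells, had 12.8 and 15.5 CPM in the knockouts and 23.6 and 24.0 CPM in the controls. It fell by 0.76 ± 0.15 on the log2 scale (adjusted p = 0.0134). It did not pass once the first control library (adjusted p = 0.0797) or the second (0.0919) was dropped, with log2 fold changes of -0.76 and -0.74. The gap between this divergent pair was not itself tested. Fgf1 was at 51.8 and 60.3 CPM in the knockouts and 68.0 and 73.5 CPM in the controls and did not pass, at -0.34 ± 0.11 on the log2 scale (adjusted p = 0.0761), but passed at -0.44 with knockout 2 dropped (adjusted p = 0.0312).

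S100a16, a member made by astrocytes in brain, had the smallest p of the 8 tested genes. It had 38.6 and 43.3 CPM in the knockouts and 103 and 99.2 CPM in the controls, so the libraries of a group lay close together and far from the other group. It fell by 1.30 ± 0.11 on the log2 scale, or 2.47-fold (adjusted p = 0.00106), with log2 fold changes from -1.38 to -1.22 when any 1 library was left out, all past the threshold. Among 13606 genes with a mean of at least 1 CPM, those whose profile over the 4 libraries was most like it were Ppp1r14a, Alpl and Tifab, with a root mean square difference in centered log2 level of 0.027, 0.028 and 0.03. Ppp1r14a, for example, had 1.60 and 1.84 CPM in the knockouts and 4.93 and 5.02 CPM in the controls. The genes most like S100b by the same measure were Fut8, Grinl1a and Ankrd10, at 0.007, 0.0082 and 0.0083. These likenesses describe 4 libraries.

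**Figure D2:**
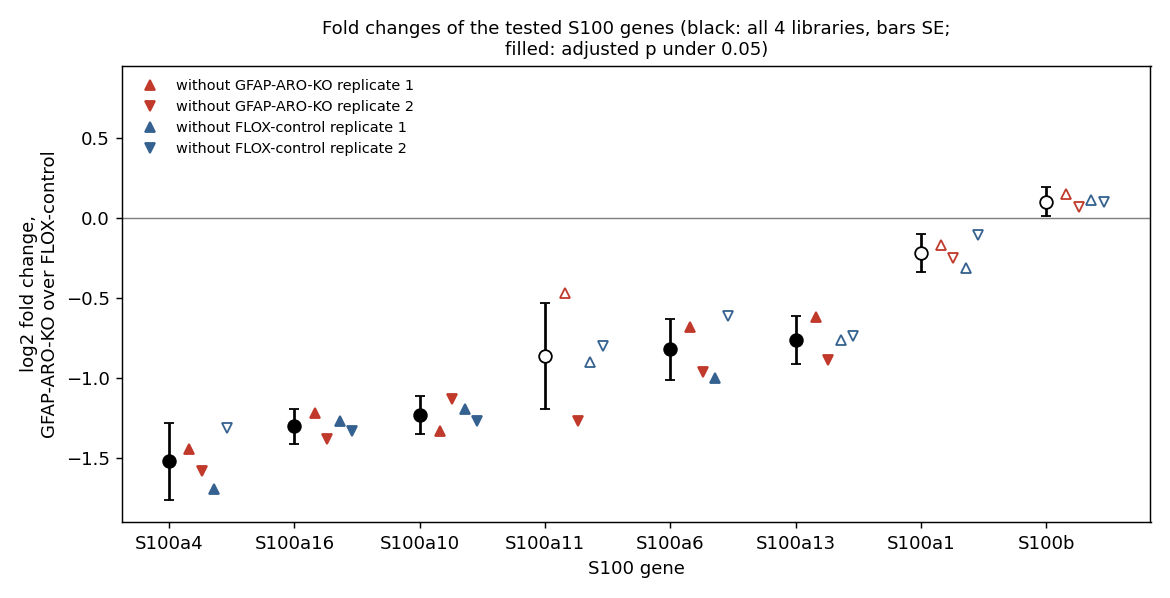
Log2 fold change of GFAP-ARO-KO over FLOX-control for the 8 tested S100 genes, from all 4 libraries (black, bars are SE) and with each library left out in turn (triangles), filled where the adjusted p is under 0.05. S100a16 and S100a10 stay filled throughout, between -1.38 and -1.13, whereas S100a4 and S100a6 are open without the second control library and S100a13 is open without either control library.

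S100a10, also called p11, has lost calcium binding and forms a stable complex with annexin A2 that carries membrane proteins to the cell surface. It had 20.5 and 18.0 CPM in the knockouts and 46.5 and 44.3 CPM in the controls, with no overlap. It fell by 1.23 ± 0.12 on the log2 scale, or 2.35-fold (adjusted p = 0.00172), and by 1.13 to 1.33 with any 1 library left out, each time past the threshold. Its partner gene Anxa2 had 16.6 and 18.8 CPM in the knockouts and 28.9 and 33.7 CPM in the controls and fell by 0.82 ± 0.14 (adjusted p = 0.00895; 0.0817 when control 2 was dropped). Ahnak, a giant scaffold protein that the complex binds, was at 46.5 and 59.8 CPM in the knockouts and 20.0 and 24.5 CPM in the controls and rose by 1.25 ± 0.16 (adjusted p = 0.00407). Hltf, a chromatin remodeler that the complex binds in neurons, had 9.88 and 9.86 CPM in the knockouts and 22.3 and 24.5 CPM in the controls and fell by 1.24 ± 0.14 (adjusted p = 0.00271). Among genes of its cargo proteins, the serotonin receptor gene Htr1b fell by 1.17 ± 0.24 (adjusted p = 0.0169; 0.122 when control 1 was dropped and 0.0589 when control 2 was). Another serotonin receptor gene, Htr4, did not pass at -0.48 ± 0.18 (adjusted p = 0.0912) but passed at -0.76 with knockout 1 dropped (adjusted p = 0.00278), and the potassium channel gene Kcnk3 did not pass (-0.05 ± 0.19). S100a10 is itself used as a marker of the A2 state of reactive astrocytes. The 11 other genes of that list had a median of -1.0 on the log2 scale, against 0.00 for all tested genes. Where 11.0% of all tested genes were called lower, 6 of the 11 fell and 5 did not pass. Among them Tm4sf1, a membrane protein, fell by 1.72 ± 0.21 (adjusted p = 0.00417), and the cytokine gene Clcf1 fell by 2.75 ± 0.44 (adjusted p = 0.00747). The largest fold changes of the list were those of Tgm1, a transglutaminase (-5.00 ± 0.47), and Ptx3, a pentraxin (-4.29 ± 0.23); Ptgs2 and Cd14 also fell.

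S100a6, or calcyclin, is abundant in fibroblasts and some astrocytes. It had 11.2 and 13.7 CPM in the knockouts and 18.8 and 25.0 CPM in the controls, the second library of each group being the higher. It fell by 0.82 ± 0.19 on the log2 scale, or 1.77-fold (adjusted p = 0.022), but with control 2 dropped it missed the threshold, at -0.61 (adjusted p = 0.165). Its binding partners Cacybp and Sugt1 did not pass (log2 fold change -0.13 ± 0.10 and -0.29 ± 0.10), while Anxa11 fell by 0.64 ± 0.15 (adjusted p = 0.0278; 0.162 when control 1 was dropped and 0.073 when control 2 was). S100a4, known as metastasin and as a fibroblast marker, had 2.14 and 2.38 CPM in the knockouts and 5.59 and 7.31 CPM in the controls. It had the largest fold change of the 8, a fall of 1.52 ± 0.24 on the log2 scale or 2.87-fold (adjusted p = 0.00725), but with control 2 dropped it missed the threshold, at -1.31 (adjusted p = 0.0553). Myh9, the nonmuscle myosin that S100a4 binds, named here after its values were seen, fell by 0.44 ± 0.11 (adjusted p = 0.0302), with adjusted p = 0.144 when control 1, 0.155 when control 2 and 0.0668 when knockout 2 was dropped. By edgeR 0 of 12 tested markers of meningeal fibroblasts passed, and 0 had an unadjusted p under 0.05 or were called by limma-voom or DESeq2, but with knockout 1 dropped, where the filter keeps another set of genes, 12 of the 13 listed were called higher, and with knockout 2 dropped 1 was lower; Fmod, at 4.04 and 61.4 CPM in the knockouts and 3.14 and 3.92 CPM in the controls, Slc6a13 and Igf2 were high in the second knockout library. Without that library S100a6 and S100a4 had log2 fold changes of -0.96 and -1.58 (adjusted p = 0.0184 and 0.00747).

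S100a11, a partner of annexin A1, was at 0.968 and 1.70 CPM in the knockouts and 2.27 and 2.45 CPM in the controls. Its log2 fold change was -0.86 ± 0.33 and did not pass (adjusted p = 0.103), but was -1.27 and passed without the second knockout library (adjusted p = 0.0371) and was -0.47 without the first. Of its transcript's windows of 50 bases, the length of a read, 66.2% had an exact match elsewhere in the genome, and reads aligned at several places stayed outside the gene counts, so its counts are uncertain; for the other 9 genes this share was 0%. Anxa1 did not pass, at 1.01 ± 0.43 on the log2 scale (adjusted p = 0.133), and passed at 1.46 with knockout 1 dropped (adjusted p = 0.014). The annexin gene Anxa6 had 104 and 99.5 CPM in the knockouts and 162 and 177 CPM in the controls and fell by 0.73 ± 0.10 (adjusted p = 0.00437). For the list count that follows, 11.0% of all tested genes were called lower and 9.39% higher. Over the whole list of 17 intracellular partners of S100 proteins 6 fell, 1 rose and 10 did not pass, with a median log2 fold change of -0.34, and 3 fell when control 1 was dropped and 2 when control 2 was; 2 rose when knockout 1 was dropped.

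S100a8 and S100a9 were close to the limit of detection. S100a8 gave 10 and 9 reads in the knockouts and 4 and 8 reads in the controls, a ratio of 1.65 with a 95% counting interval of 0.763 to 3.74. S100a9 gave 8 and 9 reads in the knockouts and 3 and 8 reads in the controls, a ratio of 1.61 with an interval of 0.714 to 3.81. Both intervals include 1, and they cover counting error only. Markers of neutrophils and monocytes were mostly scarce: of 16 in the files, Elane, Camp, Itgb2l and Fpr1 gave 0 reads in all 4 libraries, and the summed level was 5.87 and 4.26 CPM in the knockouts and 6.27 and 7.50 CPM in the controls. Csf3r, at 3.93 and 2.84 CPM in the knockouts and 5.05 and 6.12 CPM in the controls, held most of that sum. The other markers were mixed. Il1r2 was at 1.17 and 0.851 CPM in the knockouts and 0.657 and 0.520 CPM in the controls. Mpo, Fpr2 and Ltf, with few reads, were also higher in both knockouts (Fpr2: 9 and 5 reads against 2 and 1). Ccr2, Plac8 and Retnlg, also with few reads, were lower in both (Ccr2: 1 and 2 reads against 6 and 9). Only Csf3r and Il1r2 could be tested, and neither passed with edgeR (adjusted p = 0.0751 and 0.179); at an unadjusted p under 0.05 Csf3r was lower, limma-voom and DESeq2 called 0, and with knockout 1 dropped Csf3r was called lower (adjusted p = 0.0158).

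Of the receptors that secreted S100 proteins are known to use, 3 of 7 fell and 4 did not pass, where 11.0% of all tested genes fell. The median log2 fold change of the 7 was -0.33. The TLR4 co-receptor gene Cd14 had 1.54 and 3.33 CPM in the knockouts and 8.36 and 7.28 CPM in the controls and fell by 1.73 ± 0.32 (adjusted p = 0.0119). The scavenger receptor gene Cd36 fell by 1.40 ± 0.35 (adjusted p = 0.0302), and Bsg, which encodes basigin, by 0.33 ± 0.09 (adjusted p = 0.0389). None of these 3 passed with control 1 dropped (adjusted p = 0.0689, 0.0637 and 0.263) or with control 2 dropped (0.0504, 0.181 and 0.135). Bsg also missed the threshold with knockout 2 dropped (adjusted p = 0.0684) and with the replicate number as a block (0.0537), and Cd36 with knockout 1 dropped (0.0514). Ager, which encodes RAGE, was at 0.513 and 1.13 CPM in the knockouts and 0.299 and 0.337 CPM in the controls (log2 fold change 1.31 ± 0.55, adjusted p = 0.131), and passed without the first knockout library (1.82, adjusted p = 0.025). Tlr4 itself was at 1.37 and 2.48 CPM in the knockouts and 1.28 and 1.87 CPM in the controls (adjusted p = 0.66). Markers of microglia and macrophages, cells that carry several of these receptors, moved in the same direction as Cd14: 12 of 14 fell, and the summed level was 348 and 355 CPM in the knockouts and 625 and 708 CPM in the controls. Tmem119 fell by 1.50 ± 0.12 and Cx3cr1 by 1.42 ± 0.12 on the log2 scale (adjusted p = 0.0011 and 0.00115). Their part in the lower S100 transcripts was not tested.

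**Figure D3:**
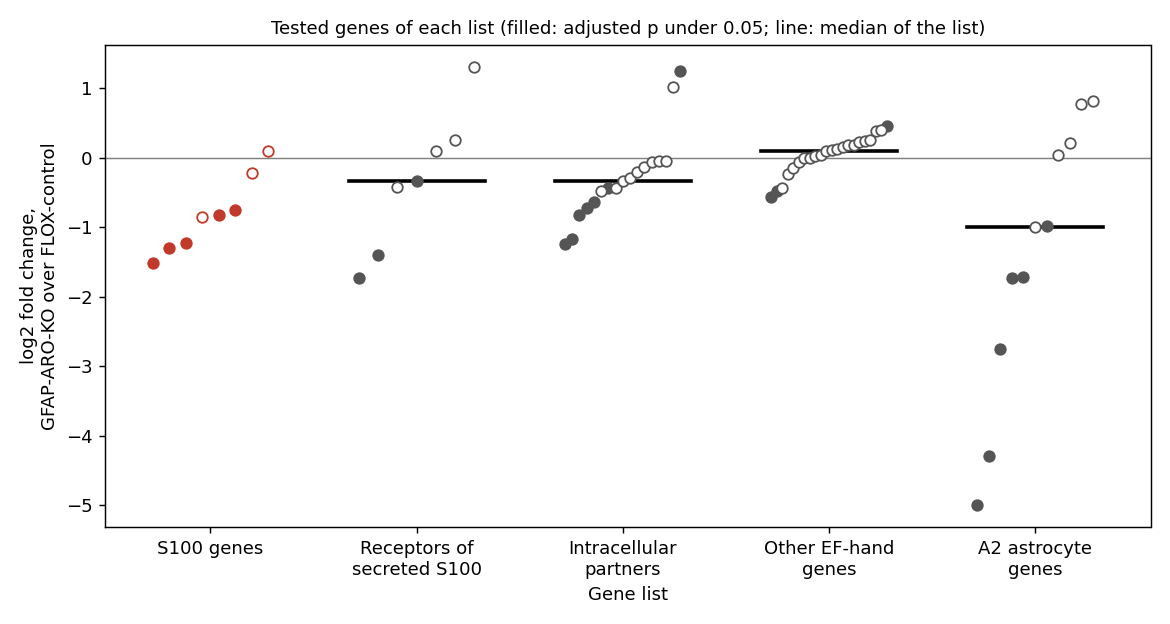
Log2 fold change of GFAP-ARO-KO over FLOX-control for each tested gene of the followed S100 genes (red) and of 4 related lists (gray). Points are filled where the adjusted p is under 0.05, and a line marks the median of each related list. Most of the other EF-hand genes lie near 0 (median 0.10), and the A2 astrocyte genes range from -5.00 to 0.81.

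Of other calcium-binding proteins of the EF-hand type 3 of 22 were called, where 20.4% of all tested genes were. Among these buffers and sensors, among them calbindin, parvalbumin and hippocalcin, 2 fell, 1 rose and 19 did not pass, with a median log2 fold change of 0.10. Hpcal4 fell by 0.48 ± 0.11 (adjusted p = 0.0206) and Cib2 by 0.57 ± 0.14 (adjusted p = 0.0278), and the channel subunit gene Kcnip1 rose by 0.46 ± 0.13 (adjusted p = 0.0411). None of the 3 passed with control 1 or control 2 dropped (adjusted p from 0.0799 to 0.307), nor did Hpcal4 or Kcnip1 with knockout 2 dropped (0.0613 and 0.0552), while 6 of the 22 were called higher with knockout 1 dropped. The 7 S100 genes outside the 10 were nearly silent: S100a2, S100a5, S100g and S100z gave 0 reads in all 4 libraries, S100a7a and S100a14 gave at most 5 reads in any library, and S100a3 gave 13 and 12 reads in the knockouts and 7 and 7 in the controls (adjusted p = 0.262). With 0 reads the upper limit, 3 counts, was 0.0855 and 0.106 CPM in the knockouts and 0.0896 and 0.0918 CPM in the controls.

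**Figure D4:**
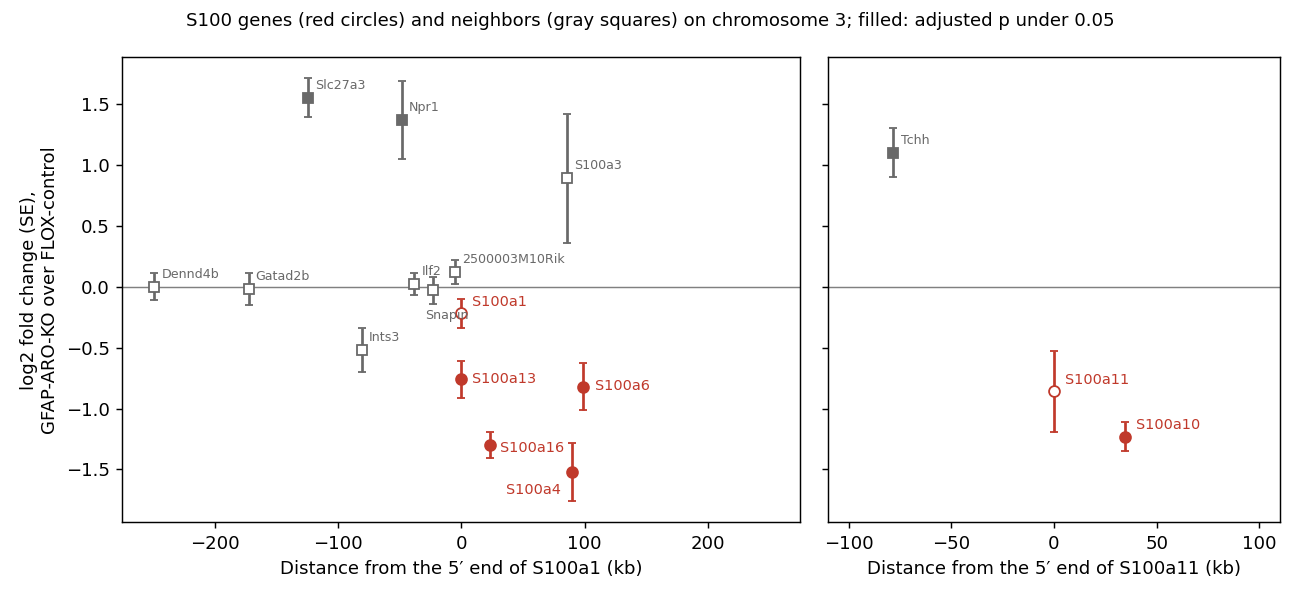
Log2 fold change of GFAP-ARO-KO over FLOX-control (bars are SE) of the followed S100 genes that were tested (red circles) and other genes, S100a3 among them (gray squares). Genes on chromosome 3 are placed by distance of the 5' end from that of S100a1 (left) or S100a11 (right) in kb. Filled symbols have an adjusted p under 0.05. The 5 filled S100 genes lie below 0 and the 3 filled neighbors, Slc27a3, Npr1 and Tchh, lie above it.

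Genes beside the S100 loci on chromosome 3 were higher where they were called. Of the 10 tested genes with a 5' end within 250 kb of a followed S100 gene on chromosome 3, 3 rose and 7 did not pass. S100a3, itself an S100 gene, is among the 7. Of all tested genes 9.39% rose. Slc27a3, a fatty acid transport protein gene, was at 23.8 and 21.1 CPM in the knockouts and 8.21 and 7.10 CPM in the controls and rose by 1.55 ± 0.16 (adjusted p = 0.00179). Npr1, a natriuretic peptide receptor gene, rose by 1.37 ± 0.32 (adjusted p = 0.0256; 0.132 when control 1 was dropped and 0.0599 when control 2 was). Tchh, which encodes trichohyalin, a hair follicle protein with an S100-like domain, rose by 1.10 ± 0.20 (adjusted p = 0.012; 0.0921 when control 1 was dropped). By edgeR 0 of them fell, with 1 lower at an unadjusted p under 0.05; limma-voom called 0 lower and DESeq2 called 1, Ints3 (-0.51, adjusted p = 0.0217), which edgeR also called with knockout 1 dropped (-0.83, adjusted p = 3.24e-04). With control 1 dropped, 1 of the 3 was still called higher. Beside S100b on chromosome 10, 2 of 6 genes fell, where 11.0% of all tested genes did. Prmt2 fell by 0.97 ± 0.13 (adjusted p = 0.00421) and Dip2a by 0.65 ± 0.10 (adjusted p = 0.00648). Dip2a overlaps S100b in the annotation without sharing exon bases, and none of the other 9 S100 genes overlaps another gene there. Other cell types gave these values: among 8 endothelial markers 2 rose and 1 fell, Ly6c1 rising by 0.88 ± 0.11 and Flt1 falling by 0.86 ± 0.12 while the most abundant, Slco1a4, did not pass; with knockout 1 dropped 4 were higher and with knockout 2 dropped 2 were lower. Among 8 tested markers of ependyma and choroid plexus 2 rose, Clic6 by 1.42 ± 0.36 and Ttr by 1.93 ± 0.46, neither of them without either control library. Ttr also missed the threshold with no filter (adjusted p = 0.0532) and under the replicate block (0.0954), and Clic6 with DESeq2 (0.0878) and with knockout 1 dropped (0.0698). Of these markers Kl, the most abundant, did not pass. Among the hippocampal neuron markers C1ql2 and Prox1 rose by 0.90 ± 0.15 and 0.63 ± 0.11, and 2 fell; with control 2 dropped 0 of these 4 were called, and with control 1 dropped 0 were lower.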

How the data were processed

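RNA was measured in 4 hippocampal libraries, 2 per genotype, sequenced as single-end reads of 50 bp per the labels' protocols. The deposited files hold the authors' raw read counts per gene symbol. The submitters' processing notes name mm9, TopHat2 2.0.8b and HTSeq, and the design text says that duplicate runs were combined before alignment. Strand setting and annotation: not given in the sources used here. For that reason reads of antisense or overlapping genes could be shared. The 5 tally rows (45.17% to 47.3% of entries) were left out.

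Genes were filtered with filterByExpr (minimum count 10, minimum total 15), which left 15011, scaled by TMM and tested with edgeR 4.0.16 (R 4.3.3, glmQLFit with robust estimation and legacy=FALSE, glmQLFTest), with Benjamini-Hochberg adjustment over all tested genes and a threshold of 0.05. SE is the absolute log2 fold change over the square root of F. The steps were tested on simulated counts. Limma-voom (limma 3.58.1), DESeq2 1.42.0 and other scalings, filters and fits were alternatives. Exon lengths and positions come from GENCODE vM1 on NCBIM37, the assembly behind mm9; exact matches were searched with BLAST. Intervals of 95% and floors of 3 counts cover counting error only. Within groups, libraries varied beyond counting noise (chi-square per degree of freedom 27 in the knockouts and 14.2 in the controls). The S100 members and gene lists were chosen with earlier results of these data known. The text names all members and family genes, called genes of the related lists (at most 6 each), and of each cell type list the most abundant member and the 2 with the smallest p; an item of these lists is not reported here. Partners and receptors named that did not pass, Ints3, Fmod and Slc6a13 were chosen after their values were seen. So were the A2 genes named that did not pass, Sox9, Gjb6 and Fgfr3, and Mpo, Fpr2, Ltf, Ccr2, Plac8 and Retnlg. Likeness used log2 CPM with a pseudocount of 0.5.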

Additional observations from a re-analysis of the deposited data

How the results depend on the processing

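The 8 tested S100 genes kept their direction in all 13 alternatives. The number called lower was 5 under each of the 9 alternatives that leave out no library (RLE and upper-quartile scaling, no filter, a minimum count of 50, DESeq2, limma-voom, the replicate block, and legacy or non-robust estimation), and ranged from 2 to 6 with 1 library left out; 0 were called higher in any. The number of all genes called, 3061, ranged from 813 to 4821 with 1 library left out. With the replicate number as a block 3194 genes were called and 5 S100 genes were lower; the deviations of same-numbered libraries from their group means had a correlation of -0.016 over genes, and the labels do not say that the numbers pair the libraries. Of 104 values of single S100 genes under alternatives, 99 kept their side of the threshold, 4 lost it without a control library and 1 gained it without the second knockout library. Among the related lists, the number of A2 genes called higher was 1 (Cd109) with limma-voom, DESeq2 or the block. With DESeq2 or the block, 2 other EF-hand genes were higher. Among receptors, Bsg lost its call under the block (adjusted p = 0.0537) and Alcam gained one (-0.43, 0.0268). The log2 fold change of Alcam without the second knockout library, where its call also changed, was -0.70. With 1 library in a group, that library is assumed to vary like the others. Depth limits S100a8 and S100a9: with no filter on low counts their log2 fold changes were 0.72 ± 0.62 and 0.68 ± 0.69 (edgeR adjusted p = 0.476 and 0.537).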
